A study of Homo sapiens with 6 samples.

Results

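The genes described here build the 2 ubiquitin-like conjugation systems of autophagy, together with UVRAG, a partner of the lipid kinase that acts before them, and SQSTM1, a cargo receptor that binds their product. There were 10 genes, chosen by symbol, of 19775 genes on the array: MAP1LC3A, MAP1LC3B, GABARAP, GABARAPL1, GABARAPL2, ATG12, ATG5, ATG7, UVRAG and SQSTM1. Every probe set annotated to exactly 1 of them was taken, which gave 25 of the 54613 non-control probe sets on the array. All 10 genes had at least 1 probe set. The cells were SKOV3.ip1, a human ovarian cancer cell line, stably transfected with a vector for 1 of 2 forms of PEA-15, a small adaptor protein of ERK and death receptor signalling. In S116A cells a serine was replaced by alanine, so that this site cannot be phosphorylated, and in S116D cells aspartic acid imitates the phosphate. For S116D the sample characteristics name Ser104 beside Ser116, the titles Ser116 alone, and the treatment text Ser16, so the number of substitutions is not settled. Whether either line is a single clone is not given in the sources used here. Each line was read on 3 Affymetrix HG-U133 Plus arrays, numbered 1 to 3 below as in the labels, and nothing in the labels says that these came from separate cultures, so p-values measure the spread between arrays, which may be technical. Both lines carry a PEA-15 vector and no array of untransfected or empty-vector cells was analysed here.

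In autophagy, a membrane closes around cytoplasm and delivers it to the lysosome. ATG7 is the activating enzyme of both conjugation systems: it passes ATG12 on towards ATG5, and it passes the ATG8 proteins (the LC3 and GABARAP proteins) on towards a lipid of the growing membrane. The ATG12-ATG5 conjugate, held by ATG16L1, directs this lipid attachment, and lipid-bound ATG8 proteins then bind cargo receptors such as SQSTM1 (p62), which is itself degraded with its cargo. Arrays read transcripts, so the values below say nothing of conjugated protein or of autophagic flux.

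The genes that fell in S116D were ATG12, MAP1LC3B and GABARAPL2, and the bases before their RefSeq starts are shown because these 3 genes moved in the same direction. RefSeq (GRCh38.p14) had 11 promoter entries for 8 of the genes, and none was used for MAP1LC3A and UVRAG. Each line gives the 250 bases before the start, 5′ to 3′ on the gene's strand. Capitals mark GC boxes (GGGCGG), cores of the antioxidant response element (TGACNNNGC) and cores of ETS sites (CGGAAG), on either strand. The ATG12 window is chr5:115841566-115841815 (minus strand), that of MAP1LC3B chr16:87392086-87392335 (plus strand) and that of GABARAPL2 chr16:75566129-75566378 (plus strand).
ATG12: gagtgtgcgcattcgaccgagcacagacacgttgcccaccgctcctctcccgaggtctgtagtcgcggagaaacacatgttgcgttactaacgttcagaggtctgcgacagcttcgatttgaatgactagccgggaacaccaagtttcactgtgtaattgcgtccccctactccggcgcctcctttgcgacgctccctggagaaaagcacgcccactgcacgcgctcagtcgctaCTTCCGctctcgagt
MAP1LC3B: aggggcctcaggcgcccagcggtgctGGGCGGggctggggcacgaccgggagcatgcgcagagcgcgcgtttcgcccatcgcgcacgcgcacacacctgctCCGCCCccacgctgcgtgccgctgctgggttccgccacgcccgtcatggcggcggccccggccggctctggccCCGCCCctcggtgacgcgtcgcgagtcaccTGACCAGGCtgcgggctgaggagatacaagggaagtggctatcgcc
GABARAPL2: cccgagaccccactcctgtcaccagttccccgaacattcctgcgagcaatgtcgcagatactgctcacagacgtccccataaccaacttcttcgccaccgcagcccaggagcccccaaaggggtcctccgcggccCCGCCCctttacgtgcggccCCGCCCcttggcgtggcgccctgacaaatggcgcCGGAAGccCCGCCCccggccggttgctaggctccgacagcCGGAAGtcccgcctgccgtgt
The ATG12 window had 57.6% G and C and no GC box, whereas the windows of MAP1LC3B (74.8%) and GABARAPL2 (68.4%) held 3 GC boxes each. Over all 35116 promoters of this length the median was 58.0% G and C, and 42.6% held a GC box. A GC box was in 9 of the 11 windows, also of genes that were not called: the 3 SQSTM1 entries held 2, 3 and 4, and those of ATG7 and GABARAPL1 2 each. The antioxidant core was found in 1 of the 11 windows, that of MAP1LC3B, against 10.9% of all promoters. The ETS core, added after the sequences were seen, was in the windows of ATG12, GABARAPL2 and 1 of the 2 ATG5 entries, against 16.5% of all. None of the 11 windows held the E-box CACGTG read by the TFEB and MITF family (6.34% of all promoters), the AP-1 site TGACTCA (4.20%) or the FOXO site TGTTTAC (2.98%). These are matches of letters in a short window, and in the 3 printed windows no marked motif overlaps another. Elsewhere overlapping matches were counted separately, as for the 2 GC boxes of GABARAPL1.

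Values are the deposited log2 signals, differences are S116D minus S116A on that scale, errors of means are SDs over the 3 arrays of a line, and a probe set is called where its limma adjusted p, over all 54613 probe sets, is under 0.05. Of the 25 probe sets, 6 fell, 1 rose and 18 did not pass. Over all probe sets 8.55% were called, 4.19% lower and 4.36% higher. The 24.0% of the 25 called lower is above this background share, and the 4% called higher is near it. The shares are not matched for signal: fitted alone, probe sets above the median signal gave 4423 calls, against 4672 over all 54613. Fewer probe sets were tested in the former fit, so the share called there was larger than 8.55%. Most of the 25 lay above that median. Of the 6 called lower, 3 were of ATG12, and the members were chosen with earlier results of these data known. The arrays of the lines did not overlap on 11 of the 25 (44.0%), against 24.0% of all probe sets, and 11 had an unadjusted p under 0.05. The median difference of the 25 was 0.029, against 0.003 over all probe sets, with 13 differences above 0 and 12 below. The called probe sets belonged to 4 genes: ATG12, MAP1LC3B and GABARAPL2 lower, and UVRAG higher. In bulk RNA, less transcript per cell and fewer cells that hold it cannot be told apart.

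**Figure D1:**
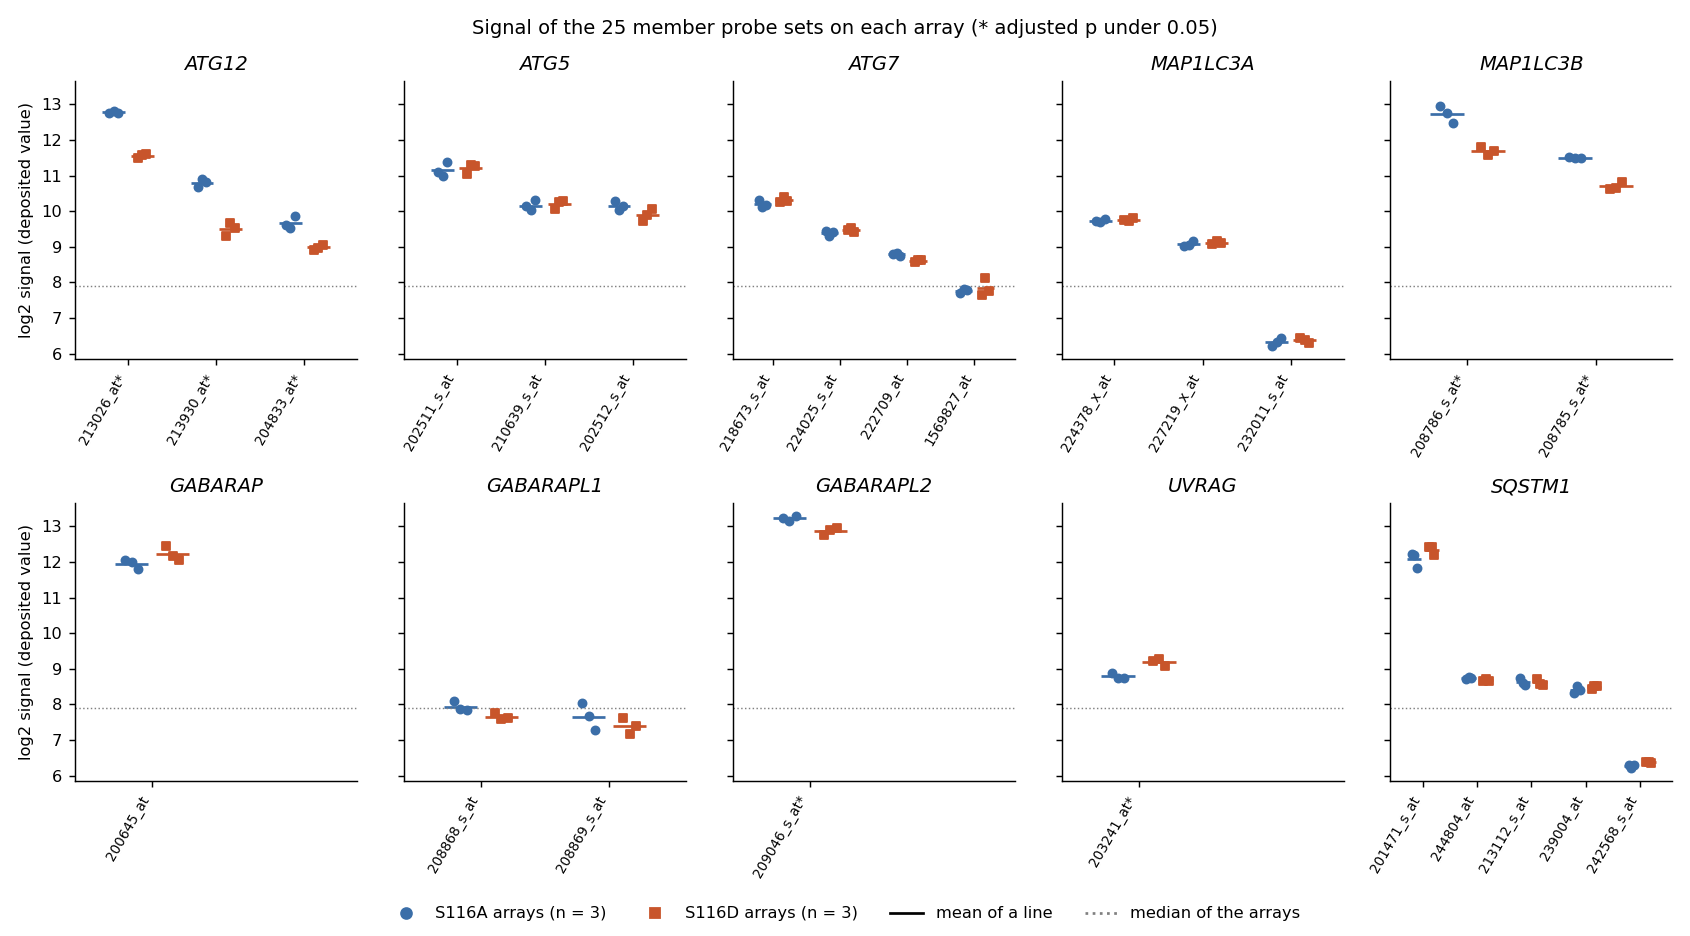
Deposited log2 signal (vertical axis) of the 25 probe sets on each of the 3 S116A (circles) and 3 S116D (squares) arrays, 1 panel per gene, with the mean of each line as a bar and the median of the arrays dotted. Asterisks mark an adjusted p under 0.05. The 3 ATG12 and 2 MAP1LC3B probe sets separate the lines by more than the spread of the arrays, while the points of MAP1LC3A and of most SQSTM1 probe sets overlap.

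ATG12, the ubiquitin-like protein of the first system, had the largest difference of the 10 genes, and its transcript fell on all 3 of its probe sets. On the brightest, 213026_at, the S116A arrays read 12.77, 12.81 and 12.75 and the S116D arrays 11.49, 11.58 and 11.60. The lines were far apart and the arrays within each line close together, with means of 12.77 ± 0.03 and 11.56 ± 0.06 (SD, n = 3 each). The difference was -1.22 (95% interval -1.37 to -1.06), a 2.32-fold fall with a limma adjusted p of 4.0e-05. On 213930_at the S116A arrays read 10.68, 10.90 and 10.81 and the S116D arrays 9.29, 9.66 and 9.53, a difference of -1.31 (interval -1.56 to -1.05, limma adjusted p = 3.0e-04). Every S116D array again lay below every S116A array, by about as much as on the brightest probe set. The dimmest, 204833_at, read 9.62, 9.53 and 9.85 in S116A and 8.91, 8.98 and 9.06 in S116D. Its difference of -0.69 (interval -0.92 to -0.46, limma adjusted p = 0.0039) was smaller, and its interval did not reach those of the other probe sets. All 3 kept their call without each array in turn (highest limma adjusted p = 0.023), and with ordinary t statistics, which share no variance between probe sets, 204833_at lost it (adjusted p = 0.076).

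ATG5, to which ATG12 is attached, had 3 probe sets and none was called by limma (1 with an unadjusted p under 0.05). On the brightest, 202511_s_at, the S116A arrays read 11.09, 11.00 and 11.39 and the S116D arrays 11.05, 11.30 and 11.26. The lines overlapped, and the difference of 0.04 had an interval from -0.23 to 0.31. The probe set 210639_s_at differed by 0.04 as well (interval -0.19 to 0.27). The third, 202512_s_at, differed by -0.26 with an unadjusted p of 0.047 and a limma adjusted p of 0.24. Its arrays read 10.29, 10.02 and 10.14 in S116A and 9.72, 9.88 and 10.07 in S116D, which overlap by a single S116D array. The intervals of the first 2 exclude a fall of the size seen for ATG12.

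ATG7, the enzyme that activates ATG12 and the ATG8 proteins, was not called by limma on any of its 4 probe sets (1 with an unadjusted p under 0.05). The brightest, 218673_s_at, read 10.30, 10.12 and 10.18 in S116A and 10.27, 10.40 and 10.29 in S116D. The lines overlapped there, with a difference of 0.12 (interval -0.07 to 0.31). On 222709_at the lines did not overlap, at 8.80, 8.82 and 8.74 against 8.56, 8.61 and 8.64, but the difference was only -0.18 (limma adjusted p = 0.17). The other 2 probe sets differed by 0.08 and 0.07, and on 1569827_at, near the median signal, the S116D arrays spread from 7.64 to 8.12. The 4 intervals lay within -0.34 and 0.34, so a change as large as that of ATG12 was not seen on any of them.

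MAP1LC3B encodes LC3B, the ATG8 protein most used to follow autophagosomes, and it fell on both of its probe sets. On 208786_s_at the S116A arrays read 12.96, 12.75 and 12.48 and the S116D arrays 11.79, 11.58 and 11.69. The S116A arrays spread more than those of S116D, yet the lowest of them lay well above the highest S116D array. The means were 12.73 ± 0.24 and 11.69 ± 0.11 (SD, n = 3 each), a 2.06-fold fall (difference -1.04, interval -1.32 to -0.76, limma adjusted p = 0.0015). On 208785_s_at the S116A arrays read 11.52, 11.48 and 11.50 and the S116D arrays 10.62, 10.65 and 10.81. This fall was 1.75-fold (difference -0.81, interval -0.99 to -0.62, limma adjusted p = 7.0e-04). Both calls held without each array in turn, at limma adjusted p of at most 0.011, and that of 208786_s_at ended with ordinary t statistics (adjusted p = 0.071).

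MAP1LC3A, which encodes the LC3A protein, differed little between the lines, and none of its 3 probe sets was called by limma (0 with an unadjusted p under 0.05). The brightest, 224378_x_at, read 9.72, 9.68 and 9.78 in S116A and 9.75, 9.73 and 9.79 in S116D. The lines overlapped, and the difference of 0.03 had an interval from -0.14 to 0.20. The other 2 differed by 0.04 and 0.05, and the highest upper and lowest lower bound of the 3 intervals were 0.21 and -0.14. A change of 2-fold is outside these intervals, although 232011_s_at was in the bottom quartile on each array and could show little. The 2 brighter ones carry the suffix _x_at, given to probe sets whose probes can read other transcripts too.

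Of the GABARAP branch of the ATG8 family, GABARAPL2 (GATE-16) was the gene that fell: its single probe set, 209046_s_at, read 13.23, 13.15 and 13.30 in S116A and 12.76, 12.91 and 12.96 in S116D. The lines did not overlap, but the gap between them was small, and the fall was 1.27-fold (difference -0.35, interval -0.52 to -0.17, limma adjusted p = 0.026). The call was lost without S116A 1 (limma adjusted p = 0.082), S116A 3 (0.065), S116D 1 (0.056), S116D 2 (0.087) or S116D 3 (0.051), and without S116A 2 it stood at 0.04999.

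GABARAP itself, read by 200645_at alone, was at 12.04, 12.01 and 11.80 in S116A and 12.44, 12.16 and 12.05 in S116D. All S116D arrays lay above all S116A arrays, but the lowest of the former exceeded the highest of the latter only just, and the difference of 0.27 (interval 0.01 to 0.53) did not pass (limma adjusted p = 0.24). It was 0.16 without S116D 1. GABARAPL1 was not called by limma on either probe set (1 with an unadjusted p under 0.05). On 208868_s_at the S116A arrays read 8.09, 7.87 and 7.83 and the S116D arrays 7.75, 7.59 and 7.60, without overlap (difference -0.28, limma adjusted p = 0.092). On 208869_s_at the lines overlapped and the interval was wide, from -0.68 to 0.15. A further probe set, annotated both to GABARAPL1 and to its near copy GABARAPL3 and therefore outside the 25, differed by -0.31 and was not called either (limma adjusted p = 0.37).

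UVRAG, which joins Beclin 1 and the class III lipid kinase and also acts in endosome traffic, was the gene that rose. On its single probe set, 203241_at, the S116A arrays read 8.89, 8.73 and 8.73 and the S116D arrays 9.21, 9.27 and 9.09. The lowest S116D array lay above the highest S116A array, and the means were 8.79 ± 0.09 and 9.19 ± 0.09 (SD, n = 3 each). The rise was 1.32-fold (difference 0.40, interval 0.21 to 0.59, limma adjusted p = 0.021). It lost its call without S116A 2 (limma adjusted p = 0.083), S116A 3 (0.053) or S116D 2 (0.093).

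SQSTM1 encodes p62, which carries ubiquitinated cargo to LC3 and binds KEAP1, and none of its 5 probe sets was called by limma (0 with an unadjusted p under 0.05). The brightest, 201471_s_at, read 12.21, 12.20 and 11.82 in S116A and 12.43, 12.42 and 12.19 in S116D. S116A 3 and S116D 3 were the lowest array of their line, the lines overlapped by 1 array, and the difference of 0.27 (interval -0.01 to 0.55) had a limma adjusted p of 0.27. Without S116A 3 it was 0.14. The other 4 differed by -0.06 to 0.10 with intervals between -0.21 and 0.25. The dimmest, 242568_s_at, was in the bottom quartile on each array.

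**Figure D2:**
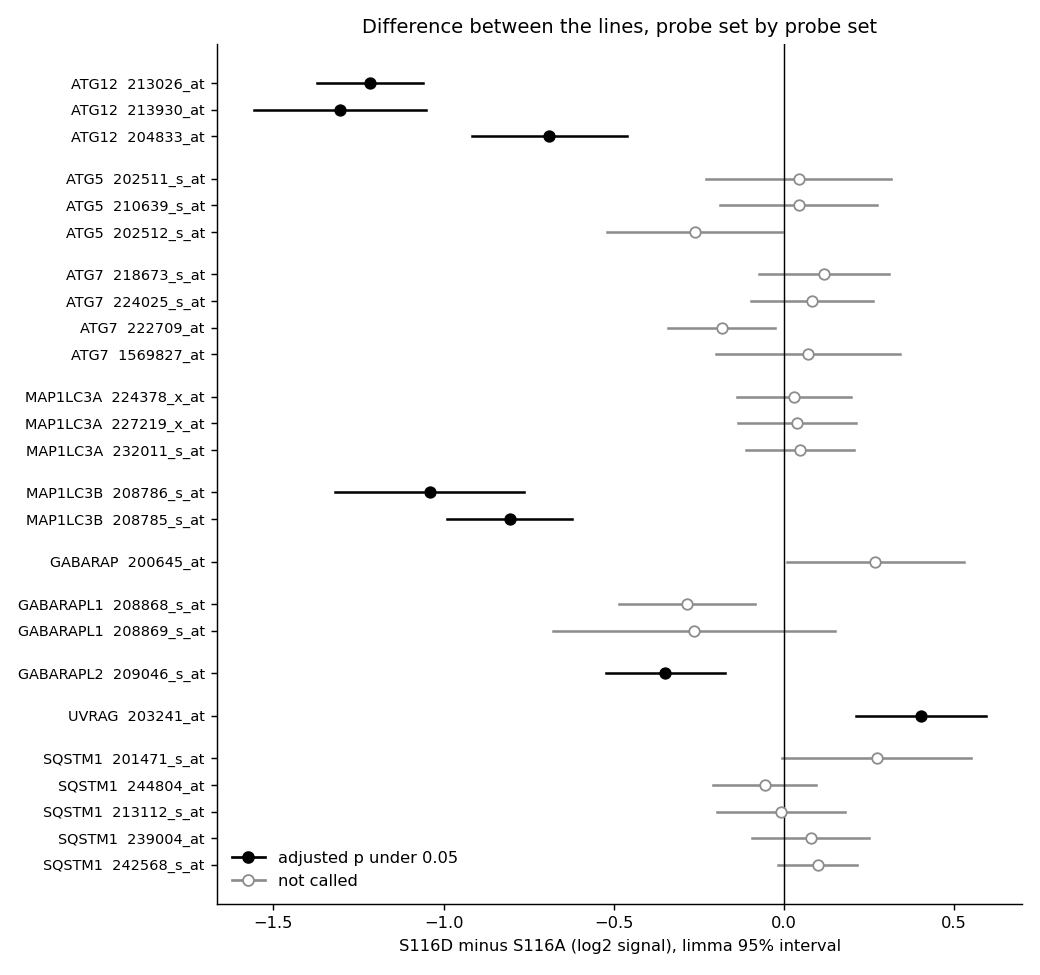
Difference S116D minus S116A in log2 signal (horizontal axis) with limma's 95% interval for each of the 25 probe sets, grouped by gene. Filled points passed an adjusted p of 0.05: the 3 of ATG12 from -1.31 to -0.69, the 2 of MAP1LC3B at -1.04 and -0.81, GABARAPL2 at -0.35 and UVRAG at 0.40.

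MAP1LC3B and GABARAPL2 both lie on chromosome 16, and 6 and 7 of their 20 nearest measured genes were called lower too. For each gene the 10 nearest measured genes on each side were taken in RefSeq order, a window chosen after the values were seen, with each gene read by its brightest probe set and p adjusted over 19775 genes. Over all genes 12.2% were called, 5.39% lower and 6.79% higher, and 52.3% had a difference above 0. Around MAP1LC3B none of the 20 was called higher, and 11 of the 13 neighbours above the median signal had a difference below 0. The nearest on either side were ZCCHC14, which fell by 1.01, and FBXO31, at -0.73 and not called (limma adjusted p = 0.067). The amino acid transporter gene SLC7A5, 4 genes away, fell by 1.12, as much as MAP1LC3B itself.

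Around GABARAPL2, 1 of the 20 was called higher, and 14 of the 16 above the median signal had a difference below 0. Its nearest neighbours were ADAT1, which fell by 0.59, and TMEM231, at -0.42 and not called (limma adjusted p = 0.082). Of the 73 measured genes between GABARAPL2 and MAP1LC3B 24 were called lower and 1 higher, and their median difference was -0.07, or -0.41 among the 48 above the median signal. On the rest of the chromosome 72 of 750 genes (9.60%) were called lower and 21 higher. A difference below 0 was found for 461 of these 750 and for 53 of the 73, at any signal. The part of this regional shift in the falls of the 2 ATG8 genes was not tested.

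ATG12 lies in no such run of lower genes. Of its 13 neighbours above the median signal, 2 had a difference below 0, and the median of the 13 was 0.18. On chromosome 5, 4 of its 20 neighbours were called higher and 1 lower, and their median difference was 0.13. The 1 called lower was AP3S1, an adaptor-complex gene read in the opposite direction. Its nearest start lies 370 bases from that of ATG12, so that the sequence printed for ATG12 lies in the stretch between both genes. AP3S1 fell by 0.21 (limma adjusted p = 0.021), from 14.52 to 14.30, far less than ATG12. Around UVRAG on chromosome 11, 2 of 20 neighbours were called higher and 0 lower. Around the 6 genes without a call, between 0 and 4 of 20 neighbours were called higher and 0 or 1 lower. One-sided windows occurred there too: of 15 neighbours of SQSTM1 above the median signal, 3 had a difference below 0.

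**Figure D3:**
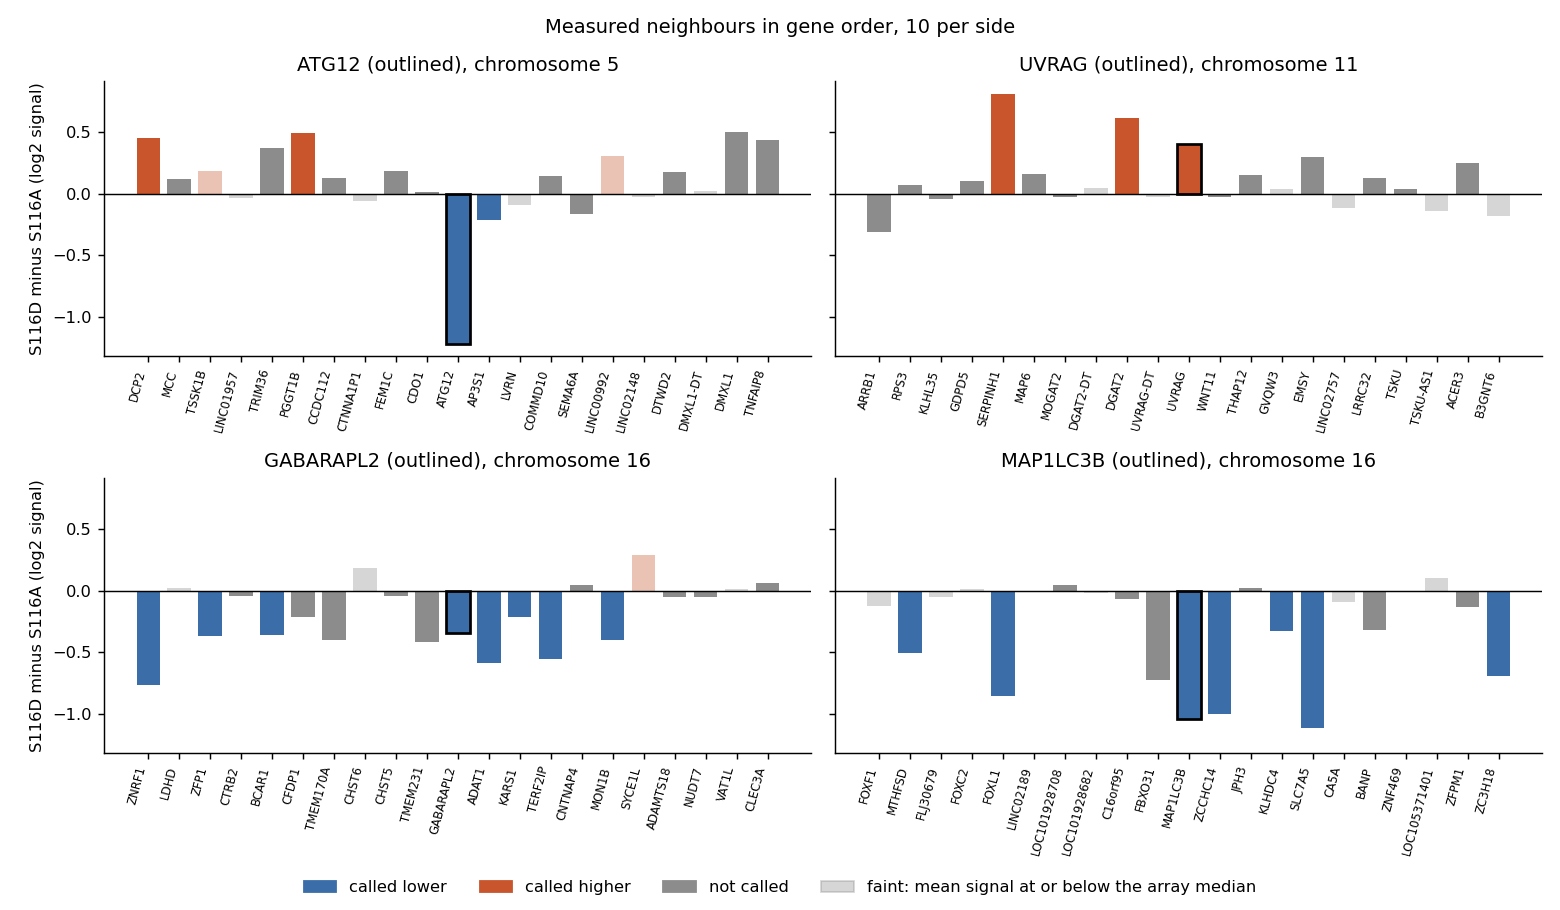
Difference S116D minus S116A in log2 signal (vertical axis) of the 10 measured genes on each side of ATG12, UVRAG, GABARAPL2 and MAP1LC3B, in gene order along the chromosome (horizontal axis, not to scale). Outlined bars are the 4 genes themselves, blue bars were called lower, red bars higher, and faint bars have a mean signal at or below the array median. Of the 20 neighbours of MAP1LC3B and of GABARAPL2, 6 and 7 were called lower, while ATG12 stands out from neighbours whose median is 0.13.

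The probe sets whose 6 centred values lay closest to those of ATG12 213026_at, the member probe set with the smallest p, were of GPRC5A (Euclidean distance 0.17 in log2 units), SLC7A5 (0.18) and SLC39A8 (0.19). GPRC5A is an orphan receptor gene, and it fell by 1.08, from 12.94 ± 0.04 to 11.86 ± 0.07 (SD, n = 3 each). SLC7A5, the large neutral amino acid transporter gene named above, fell by 1.12 and the zinc and manganese transporter gene SLC39A8 by 1.30. With 6 arrays in 2 groups, likeness of this kind mostly means a difference of the same size.

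The rest of the pathway was read through 9 lists of 122 measured genes, chosen with earlier results of these data known. Of these genes 10 rose, 8 fell and the rest did not pass, which is 14.8% called against 12.2% of all genes. These shares are not matched for signal. The median difference of the 122 was -0.01, against 0.01 over all genes. Among 12 other conjugation genes, ATG4D, a protease that trims ATG8 proteins, fell by 0.41 (limma adjusted p = 0.0083) and ATG16L2, a relative of ATG16L1, rose by 0.30 (0.033). Over all 9 lists, 7 genes without a call on their brightest probe set had one on another. On 1 such probe set each, FYCO1 of the receptor list rose by 1.03, ATG2B rose by 0.40 and ATG4B fell by 0.38. The others, LAMP1, LAMP2, GCLM and SLC7A11, are given below. The conjugating enzymes of the 2 systems, ATG3 at -0.23 and ATG10 at 0.26, did not pass, nor did ATG16L1 at -0.38 (limma adjusted p = 0.059). These 3 were picked for their role after their values were seen.

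Upstream of conjugation, RB1CC1, the scaffold of the ULK1 kinase complex, fell by 0.43 and was the 1 called gene of 8 in that list. Of 10 genes of the lipid kinase complexes and their partners, 2 fell and 1 rose. RUBCN (Rubicon), which restrains the UVRAG form of the complex, fell from 9.80 ± 0.14 to 9.24 ± 0.10 (SD, n = 3 each), on 1 of its 5 probe sets. SH3GLB1, a membrane-bending protein that binds UVRAG, fell by 0.45 on 1 of its 3 probe sets. On the median of their probe sets both differences were near 0, at 0.02 and 0.05. VMP1, a membrane protein needed for autophagosome formation, rose by 0.81. None of 8 genes for ATG9, ATG2 and WIPI proteins was called by limma on its brightest probe set (3 with an unadjusted p under 0.05), with ATG2A at -0.34 (limma adjusted p = 0.057) and WIPI1 at 0.36 (0.11).

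Downstream, on the brightest probe set of each gene, the receptor and lysosome lists held higher calls and no lower ones. The shares called were 18.8% and 17.4%, against 12.2% of all genes called and 6.79% called higher. They are not matched for signal: 15 of the 16 receptor genes and 22 of the 23 lysosomal genes lay above every array median. The receptor list had a median difference of 0.005, and its lowest, BNIP3L at -0.51, was not called (limma adjusted p = 0.058). Of 16 cargo receptors and adaptors 3 rose and 0 fell: RETREG1, a receptor for endoplasmic reticulum, rose by 0.85 (limma adjusted p = 0.0037), TAX1BP1 by 0.34 and NCOA4, the ferritin receptor, by 0.25. On the median of their probe sets RETREG1 stood at 0.29 (limma adjusted p = 0.016) and TAX1BP1 at 0.28 (0.081), and 2 of 4 and 1 of 3 of their probe sets were called. Of 23 lysosomal genes 4 rose and 0 fell, and their median difference was 0.14. NPC2, which binds cholesterol inside the lysosome, rose from 11.38 ± 0.10 to 12.03 ± 0.12 (SD, n = 3 each, limma adjusted p = 0.0027). The protease genes CTSF and CTSZ rose by 0.59 and 0.54, and ATP6V0E1, a subunit of the proton pump, by 0.22. CTSZ lost its call on the median of its 2 probe sets (0.26, limma adjusted p = 0.076). ATP6V0E1 was called in 6 of 15 alternatives, and lost its call with median centring (limma adjusted p = 0.051), without the variance trend (0.057) and on the median of its 7 probe sets (0.10, 0.49). On other probe sets, LAMP1 had 1 of 4 called lower and LAMP2 had 1 called lower and 2 higher of 4; both encode lysosomal membrane proteins. Of 12 fusion genes VAMP8, a SNARE of the autophagosome and lysosome, rose by 0.56 (limma adjusted p = 0.0028) and YKT6, another SNARE, fell by 0.48 on 1 of its 2 probe sets (-0.15 on their median, limma adjusted p = 0.34).

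Among 22 genes of the transcription factors of autophagy genes and of mTORC1, MITF and MTOR fell. MITF, a relative of TFEB, fell from 11.24 ± 0.05 to 10.25 ± 0.05 (SD, n = 3 each), a 1.99-fold fall with a limma adjusted p of 1.4e-04. MTOR fell by 0.43 on its brightest probe set (limma adjusted p = 0.042 over genes), neither of its probe sets passed over all probe sets, and on their median it stood at -0.23 (limma adjusted p = 0.12). In the KEAP1 and NRF2 list TXNRD1, thioredoxin reductase, fell by 0.70 (limma adjusted p = 0.0011) and the other 10 did not pass on their brightest probe set. TXNRD1 was called on 1 of its 2 probe sets and stood at -0.33 on their median (limma adjusted p = 0.021). On other probe sets GCLM, a subunit of the enzyme that starts glutathione synthesis, had 2 of 3 called lower and SLC7A11, the cystine transporter, 1 of 3 called higher.

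**Figure D4:**
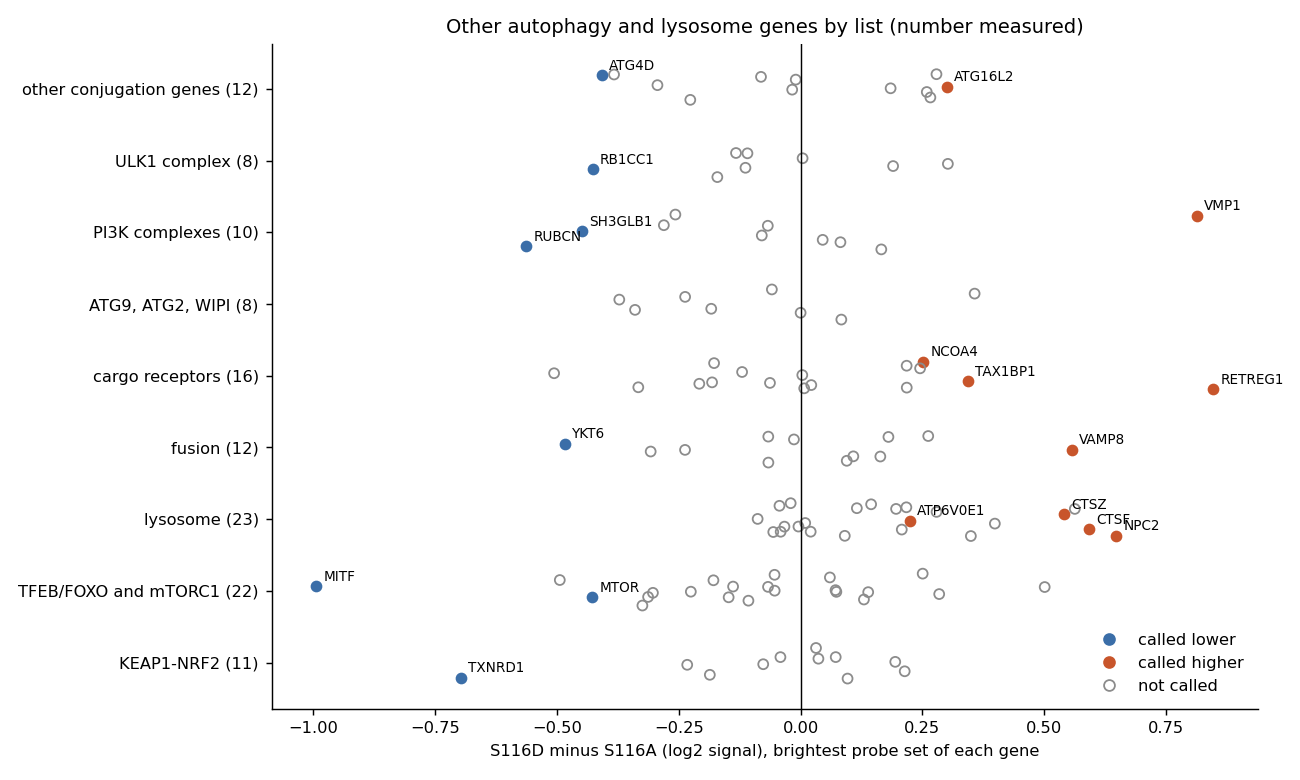
Difference S116D minus S116A in log2 signal (horizontal axis) of 122 other autophagy, lysosome and stress genes, each on its brightest probe set, by list, with the number measured in brackets. Filled points were called, 8 lower (blue) and 10 higher (red), and open points were not.

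Of the 18 called genes, 7 kept their call without each array in turn: ATG4D, MITF, NPC2, RETREG1, RUBCN, TXNRD1 and VAMP8. Leaving out S116D 2 or S116D 3 ended 9 calls each, S116A 2 ended 7, S116A 1 ended 6, S116A 3 ended 4 and S116D 1 ended 2, at limma adjusted p from 0.05 to 0.18. Of the 11 genes that lost a call, SH3GLB1, VMP1 and TAX1BP1 lost it for 1 array and the others, ATG16L2, RB1CC1, NCOA4, YKT6, CTSF, CTSZ, ATP6V0E1 and MTOR, for at least 4.

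The arrays were alike in scale, with medians from 7.86 to 7.89. PEA15 itself was not called by limma on either of its probe sets, at -0.06 (unadjusted p = 0.51) and -0.19 (unadjusted p = 0.035). Of 10 ovarian carcinoma markers 9 lay above every array median, and MUC16 was dim. KRT7, KRT8, KRT18, KRT19 and EPCAM fell in S116D (differences from -0.39 for KRT8 to -2.26 for KRT19). That is 5 of 10 called lower, against 5.39% of all genes. The other 5 were not called: ERBB2 at 0.39, PAX8 at 0.05, WFDC2 at -0.01, WT1 at -0.07 and MUC16 at -0.13. EPCAM lost its call without S116A 1, S116A 2, S116D 2 or S116D 3 (limma adjusted p from 0.053 to 0.066) and KRT8 without S116A 1 or S116D 2 (0.053 each). On the median of their probe sets KRT7 stood at -0.27 and KRT19 at -1.20, both still called. The summed log2 signal of the 10 was 116.4 to 118.8 on S116A and 111.3 to 113.9 on S116D arrays. None of 6 leukocyte and 9 fibroblast markers was called by limma (0 and 1 with an unadjusted p under 0.05). In S116A and S116D the means were 6.94 and 7.05 for PTPRC, 9.52 and 9.57 for CD3E, and 10.17 and 10.07 for COL1A1. Above every array median lay 2 of the leukocyte and 4 of the fibroblast markers. Their summed signals were 44.87 to 45.75 and 45.48 to 45.62 for leukocytes, and 72.12 to 72.35 and 71.92 to 72.42 for fibroblasts, in S116A and S116D. Whether the fall of KRT7, KRT8, KRT18, KRT19 and EPCAM has a part in the results above was not tested. The second principal component of the arrays, with 20.3% of their variance, put S116A 1, S116A 2 and S116D 1 on one side and the other 3 arrays opposite, which no label explains: S116A 3 and S116D 1 lay apart from their lines there (-25.6 and 27.6, against 13.7 and 8.16 for the other S116A and -10.7 and -13.1 for the other S116D arrays). Within the first set ATG12 213026_at differed by -1.30 and within the second by -1.16, MAP1LC3B 208786_s_at by -1.06 and -0.85, GABARAPL2 by -0.43 and -0.36, and UVRAG by 0.40 and 0.44. With these sets as a block, GABARAP (0.36, limma adjusted p = 0.0028) and SQSTM1 201471_s_at (0.36, 0.016) passed as well; within the sets GABARAP differed by 0.41 and 0.31 and SQSTM1 by 0.23 and 0.49.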

How the data were processed

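Total RNA from 6 samples, 3 per line, was read on 1-colour Affymetrix arrays. The authors deposited 1 log2 signal per probe set and array. The log2 scale was inferred from the values, all between 4.34 and 15.33 with quartiles nearly equal across arrays. MAS5 and RMA appear, per the submitters' processing notes, with no role stated. Versions and settings were not given in the sources used here. No detection calls were used, so nothing was called absent.

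The 62 control probe sets were left out. GEO's platform annotation, updated through RefSeq gene identifiers, gave 1 gene for 41091 probe sets, several for 1801 and no name for 11721. Groups came from sample titles. All 54613 probe sets were fitted by limma 3.58.1 under R 4.3.3, using lmFit and then eBayes with a trend and no covariates, and p was adjusted by Benjamini-Hochberg with a threshold of 0.05. For other genes the probe set with the highest mean was fitted over 19775 genes. An exact permutation test of 3 against 3 cannot go below 0.1, so none is given. On simulated data with 200 of 54613 probe sets changed, the fit recovered 53.7%, 86.6% and 98.5% of changes of 0.5, 1 and 2, and 5.92% of its calls were false. The simulated noise was independent between probe sets, and 4672 probe sets were called in the data. These rates therefore need not hold for the data. The members and lists were chosen with earlier results of these data known. Named genes were every member probe set, up to 4 called genes per list with the smallest p (or 2 where none was called), and the 3 closest probe sets of other genes. Other genes, such as nearest neighbours and markers, were named after their values were seen. Same-numbered arrays deviated together at r = 0.45, -0.04 and 0.44 and were not taken as pairs. Alternatives were 2 scalings, a signal filter, 3 variance models, 2 blocks, gene-level reading and each array left out. The planned pseudocount for linear values was not needed.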

Additional observations from a re-analysis of the deposited data

How the results depend on the processing

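Over 345 refits of single member probe sets, 327 stayed on their side of the threshold, 12 lost a call and 6 gained one, and 11 differences that were not called changed sign, with no called one among them. ATG12 213026_at and 213930_at and MAP1LC3B 208785_s_at were called in all 14 alternatives. The 7 member calls became 3 with ordinary t statistics, 8 with array weights, 10 with the replicate block and 9 with the block of array sets, chosen after seeing the data, and were 5 to 6 without 1 array. Read by gene, 4 of 10 members were called on the brightest probe set and 4 on the median of probe sets, a count of genes, not of probe sets, beside 12.2% of all genes called (5.39% lower and 6.79% higher, brightest probe set). The replicate block added GABARAP, GABARAPL1 208868_s_at and SQSTM1 201471_s_at. Over all probe sets 4672 calls became 1026 with ordinary t statistics, 7340 with the replicate block, 8099 with the block of array sets, and 2608 to 4674 without 1 array. The 18 called genes of the wider lists became 8, 37 and 46 under these 3 settings, 35 with array weights, and 9 to 22 without 1 array. Scalings and the signal filter left all 7 member calls in place. Precision was limited by 3 arrays per line.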
